A study of Mus musculus with 12 samples.

Results

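Chemokines are small secreted proteins that steer leukocytes through receptors coupled to G proteins, and mesenchymal stem cells (MSCs) of the bone marrow are among their stromal sources. The account below follows 10 chemokine genes that MSCs can express, Ccl2, Ccl5, Ccl7, Ccl8, Ccl20, Cxcl1, Cxcl5, Cxcl10, Cxcl12 and Cx3cl1, taken by gene symbol from a table of 55401 mouse genes, and each of them was found once. These genes, and the gene lists set beside them, were chosen with earlier results of these data known. Shares over all tested genes are therefore given beside their counts as a description. They were divided by role into 2 interferon-driven genes (Cxcl10 and Ccl5), 4 inflammatory CC chemokines (Ccl2, Ccl7, Ccl8 and Ccl20), 2 CXC chemokines that attract neutrophils (Cxcl1 and Cxcl5), and the homeostatic Cxcl12 with the membrane-bound Cx3cl1. The cells were bone marrow MSCs of C57BL/6 mice from a commercial supplier, in 4 groups of 3 mRNA libraries. The groups were untreated MSCs, MSCs with TGF-β1 at 5 ng/mL, and MSCs with the same dose of TGF-β1 given in the culture supernatant of monocytic (M-MDSC) or of granulocytic (G-MDSC) myeloid-derived suppressor cells. The MDSCs had been induced from C57BL/6 bone marrow with GM-CSF and IL-6 and then sorted. No group received a supernatant without TGF-β1, so an effect of supernatant alone cannot be told apart from its effect on cells with TGF-β1. The paper names RPMI medium for the MDSCs and DMEM for the MSCs. No group received TGF-β1 in MDSC medium that had held no cells, so effects of the medium and of MDSC products cannot be told apart. The number of supernatant preparations is not given in the paper. Levels are given as FPKM, sequenced fragments scaled by gene length and library depth, and the libraries held from 73977669 to 84565450 counts. Differences are log2 fold changes with their standard error (SE) from 1 edgeR fit of all 12 libraries, with p-values adjusted over 12016 tested genes. A gene is said to rise or fall where its adjusted p was under 0.05. The labels do not say whether the 3 libraries of a group came from separate cultures, so the p-values measure the spread between libraries, which may be technical.

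Transcription of chemokine genes is classically switched on by NF-κB downstream of TNF, IL-1 and microbial products. A smaller set, with Cxcl10 as its best known member, is also switched on by interferon, through a DNA motif named the interferon-stimulated response element (ISRE). In stroma, CXCL12 is the exception, a constitutive factor that retains hematopoietic stem cells in the marrow through CXCR4, whereas CCL2 and CCL7 release monocytes through CCR2, and CXCL1 and CXCL5 act on neutrophils through CXCR2.

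The RefSeq sequence before the start of transcription was at hand for 6 of the 10 genes, and 4 stretches of 250 bases (build GRCm38.p6) are shown because they set the interferon-driven Cxcl10 beside an inflammatory CXC gene (Cxcl1), an inflammatory CC gene (Ccl20) and the homeostatic Cxcl12. Capitals mark matches on either strand to the ISRE core (a direct repeat of the 4 letters GAAA, with 2 bases of any kind in between) and to the NF-κB consensus.
Cxcl10, chr5:92348890-92349139, minus strand: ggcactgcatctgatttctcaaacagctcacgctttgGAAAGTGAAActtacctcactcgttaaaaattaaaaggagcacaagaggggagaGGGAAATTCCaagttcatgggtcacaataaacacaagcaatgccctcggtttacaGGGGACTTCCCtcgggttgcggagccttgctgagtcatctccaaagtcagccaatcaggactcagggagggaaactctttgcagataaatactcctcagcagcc
Cxcl1, chr5:90890995-90891244, plus strand: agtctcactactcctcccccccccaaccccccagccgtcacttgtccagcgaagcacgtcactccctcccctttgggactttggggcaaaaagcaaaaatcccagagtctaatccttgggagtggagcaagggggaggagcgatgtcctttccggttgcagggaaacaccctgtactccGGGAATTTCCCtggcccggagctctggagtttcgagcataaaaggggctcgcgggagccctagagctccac
Ccl20, chr1:83116516-83116765, plus strand: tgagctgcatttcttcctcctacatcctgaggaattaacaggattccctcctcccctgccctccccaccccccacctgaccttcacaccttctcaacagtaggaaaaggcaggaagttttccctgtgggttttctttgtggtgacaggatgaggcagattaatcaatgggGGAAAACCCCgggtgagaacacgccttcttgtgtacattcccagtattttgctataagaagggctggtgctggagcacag
Cxcl12, chr6:117168285-117168534, plus strand: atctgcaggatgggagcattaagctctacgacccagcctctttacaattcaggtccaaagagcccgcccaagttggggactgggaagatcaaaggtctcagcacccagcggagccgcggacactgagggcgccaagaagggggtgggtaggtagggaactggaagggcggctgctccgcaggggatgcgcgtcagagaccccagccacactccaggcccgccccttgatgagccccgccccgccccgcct

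Of the 6 windows, that of Cxcl10 alone held the ISRE core, at bases -213 to -204, a motif found in 2.98% of all 32851 windows of this length. The NF-κB consensus was found at -159 to -150 and, in overlapping matches, at -104 to -94 in Cxcl10, at -71 to -61 in Cxcl1 and at -80 to -71 in Ccl20, against 7.25% of all windows. Ccl8, Cxcl12 and Cx3cl1 had neither motif in these bases. Cx3cl1 (at -6 to -1) and Ccl8 (at -32 to -27) held the sequence TATAAA, which 12.4% of all windows have. These are matches of letters, and binding was not measured.

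**Figure D1:**
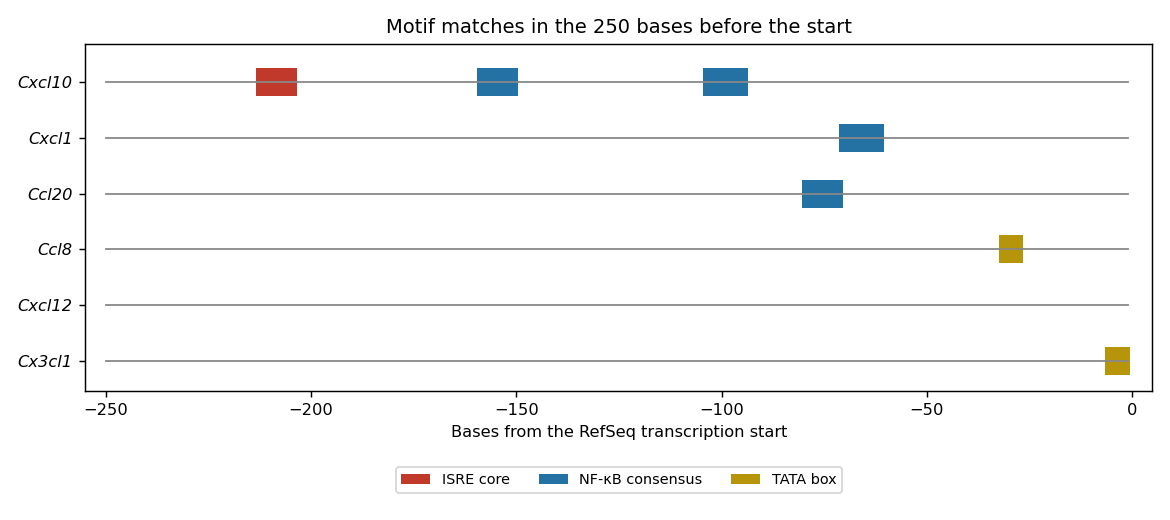
Matches to 3 motifs in the 250 bases before the RefSeq start of 6 chemokine genes, with the distance from the start in bases on the x axis and 1 gene per line. The ISRE core (red) is seen in Cxcl10 alone, at -213 to -204, and the NF-κB consensus (blue) in Cxcl10, Cxcl1 and Ccl20.

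Untreated MSCs expressed a broad range of chemokine levels. Ccl2 was the most abundant at 61.6 ± 3.00 FPKM (SD, n = 3), followed by Ccl7 at 27.4 ± 1.97, Ccl5 at 20.3 ± 1.96 and Cxcl12 at 18.6 ± 0.713 FPKM, and the ranges of Ccl5 and Cxcl12 overlapped. Cxcl5 had 6.97 ± 1.04, Cxcl10 3.67 ± 0.208 and Cxcl1 3.25 ± 0.458 FPKM, and the libraries of Cxcl10 and Cxcl1 overlapped as well. Cx3cl1 at 1.75 ± 0.0545 and Ccl8 at 1.37 ± 0.694 FPKM could not be ordered. Ccl20 was at 0.0291 ± 0.0502 FPKM, which rests on 11 counts in 1 library and 0 counts in the other two. Summed over the 10 genes, untreated MSCs had 145 ± 3.88 FPKM and MSCs with TGF-β1 41.9 ± 1.80 FPKM. The sum was 65.6 ± 1.86 FPKM in M-MDSC and 78.4 ± 1.34 FPKM in G-MDSC supernatant. Ccl2 gave 42.5% of the untreated sum and 28.7% of the sum with TGF-β1, where Cxcl12 became the largest part with 30.5%. In RNA of a whole culture, fewer expressing cells and less RNA per cell cannot be told apart.

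**Figure D2:**
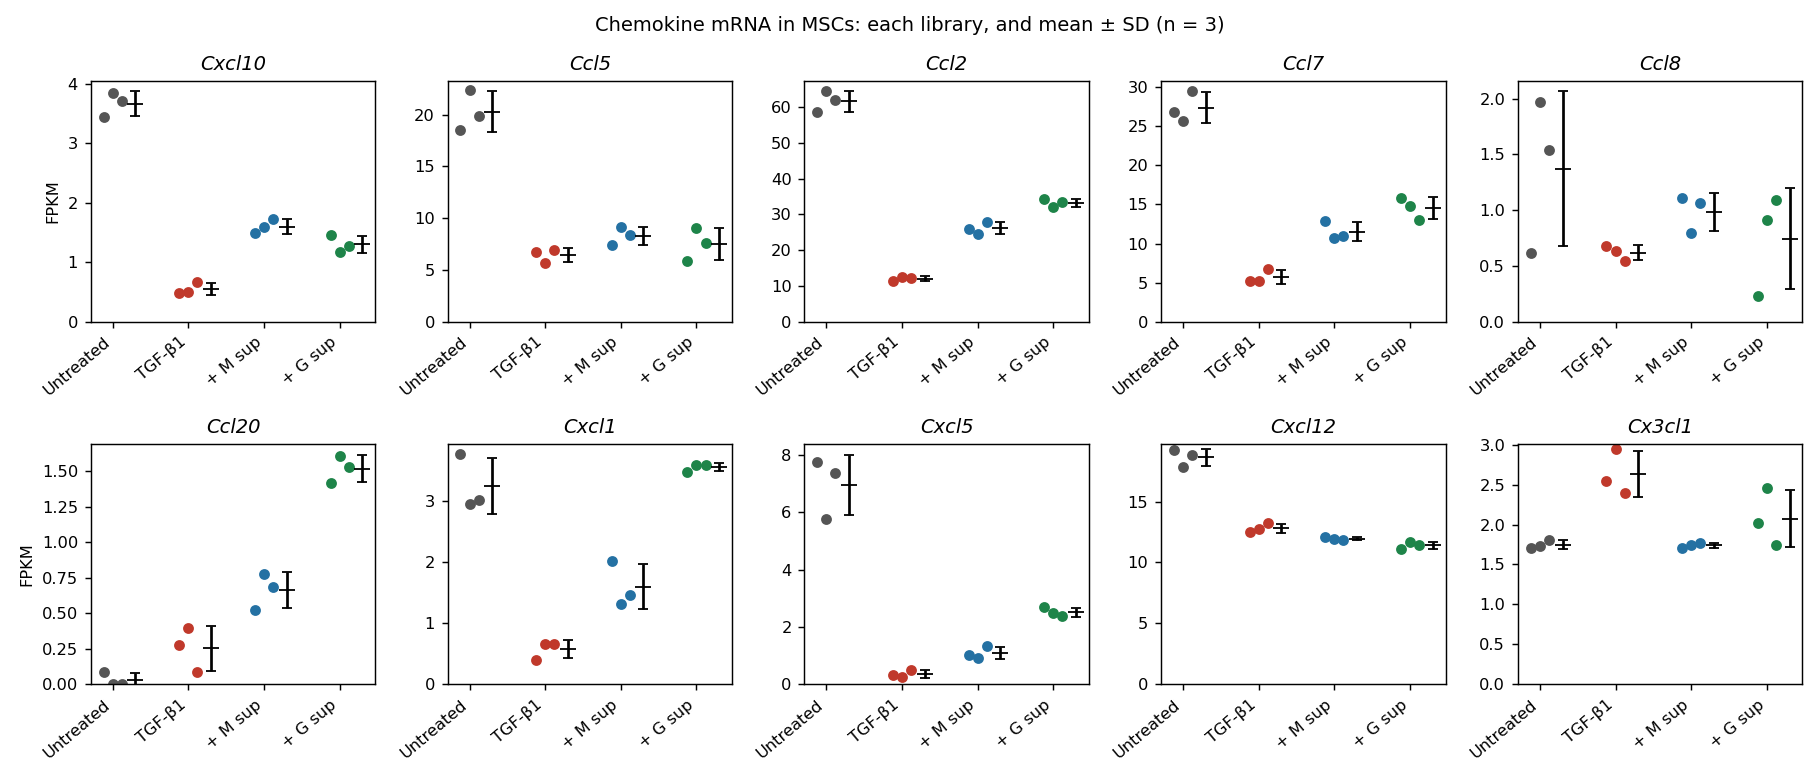
FPKM of the 10 chemokine genes (y axis, linear, from 0) in each library of the 4 groups, with black bars for the mean ± SD of 3 libraries; + M sup and + G sup are TGF-β1 in M-MDSC and in G-MDSC supernatant. Cxcl10, Ccl5, Ccl2, Ccl7, Cxcl1, Cxcl5 and Cxcl12 have every TGF-β1 library below every untreated one, and Ccl20 has its highest libraries with G-MDSC supernatant, from 1.42 to 1.60 FPKM.

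TGF-β1 lowered 7 of the 10 chemokines and raised 2. The largest fall was that of Cxcl5 (fitted fold 18.3) and the smallest that of Cxcl12 (1.40), while Ccl20 and Cx3cl1 rose, and Ccl8 did not pass the test. By the same test 34% of all tested genes were called in this comparison, 17.9% lower and 16.1% higher, beside 9 of these 10. Judged by FPKM alone, the same 7 lay in all TGF-β1 libraries below all untreated ones, where 30% of all tested genes did.

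Cxcl10 (ENSMUSG00000034855, GRCm38 chromosome 5, 92346638 to 92348882, minus strand) encodes a ligand of CXCR3 that draws activated T cells. Its level in the 3 untreated libraries was 3.44, 3.84 and 3.72 FPKM, and with TGF-β1 it was 0.486, 0.506 and 0.664 FPKM. The libraries with M-MDSC supernatant had 1.48, 1.58 and 1.73 FPKM and those with G-MDSC supernatant 1.45, 1.18 and 1.26 FPKM. The supernatant libraries thus lay between the untreated and the TGF-β1 libraries without touching either. With TGF-β1, Cxcl10 fell by 2.65 on the log2 scale (SE 0.146, adjusted p = 2.09e-07). Against TGF-β1 alone it rose by 1.50 with M-MDSC supernatant (SE 0.142, adjusted p = 8.40e-05) and by 1.20 with G-MDSC supernatant (SE 0.141, adjusted p = 0.000501). It stayed below untreated MSCs, with log2 fold changes of -1.15 (adjusted p = 7.59e-05) and -1.46 (adjusted p = 1.44e-05) respectively. An overlapping gene on the opposite strand, Art3, had at most 13 counts in any library, against at least 100 counts for Cxcl10 itself.

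Ccl5 (ENSMUSG00000035042, chromosome 11, 83525778 to 83530518, minus strand), also called RANTES, attracts T cells and monocytes. It had 18.5, 22.4 and 19.9 FPKM in untreated MSCs and 6.73, 5.62 and 6.90 FPKM with TGF-β1. The values were 7.39, 9.16 and 8.35 FPKM with M-MDSC supernatant and 5.89, 9.02 and 7.60 FPKM with G-MDSC supernatant. The fall with TGF-β1 was 1.60 on the log2 scale (SE 0.156, adjusted p = 1.58e-05), and the groups did not overlap. Ccl5 differed from Cxcl10 in what followed. Its difference against TGF-β1 alone did not pass the test with M-MDSC supernatant (log2 fold change 0.35, interval of 2 SE from 0.041 to 0.66, adjusted p = 0.288) or with G-MDSC supernatant (0.20, from -0.11 to 0.51, adjusted p = 0.598). Against untreated MSCs it was lower with both, by -1.25 (adjusted p = 9.32e-05) and -1.40 (adjusted p = 4.29e-05) on the log2 scale.

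These interferon-driven chemokines were set beside a list of 15 interferon response genes (14 tested), which hold antiviral effectors and the factors that carry the interferon signal. All 14 fell with TGF-β1 (median log2 fold change -1.61, against 0.00048 over all tested genes, of which 17.9% fell), among them Ifit1, Ddx58, Ifit3 and Rsad2. All 14 rose with M-MDSC supernatant against TGF-β1 alone (median 3.36, against -0.013 over all genes, of which 2.83% rose), and all 14 rose with G-MDSC supernatant (median 2.94, against -0.014, with 3.1% of all genes rising). Bst2, a membrane protein that tethers virus particles, went from 72.9 ± 3.51 FPKM untreated and 30.1 ± 3.93 with TGF-β1 to 605 ± 18.9 with M-MDSC and 420.1 ± 24.0 with G-MDSC supernatant. Summed over the 15 genes, the level was 169 ± 11.9 FPKM untreated, 56.8 ± 5.06 with TGF-β1, 976 ± 23.3 with M-MDSC and 664 ± 27.9 with G-MDSC supernatant.

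The list thus came to lie above the untreated level, and both interferon-driven chemokines stayed below it. Against untreated MSCs, 13 of the 14 list genes were higher with M-MDSC supernatant and 1, Rsad2, was lower, where 16.4% of all tested genes were higher and 18.9% lower. With G-MDSC supernatant 10 were higher, Rsad2 was lower, and 3 (Ifit1, Ifit3 and Gbp2) did not pass, where 16.4% of all tested genes were higher and 18.4% lower. Rsad2, which encodes the antiviral enzyme viperin, was the list gene most like Cxcl10 in this respect, with log2 fold changes against untreated of -0.52 (adjusted p = 0.0199) and -0.99 (adjusted p = 0.000438); it is singled out after its values were seen. Of the other interferon-induced ligands of CXCR3, Cxcl9 had at most 4 counts and Cxcl11 at most 12 counts in any library, and neither was tested. Expressed as the part of the TGF-β1 fall that came back, Cxcl10 regained 33.6 ± 4.01% with M-MDSC and 23.9 ± 4.47% with G-MDSC supernatant, and Ccl5 13.6 ± 6.40% and 7.83 ± 11.3%. For all regained shares, the ± is the SD over the 3 supernatant libraries. The untreated and TGF-β1 means were held fixed, so their own spread is left out.

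**Figure D3:**
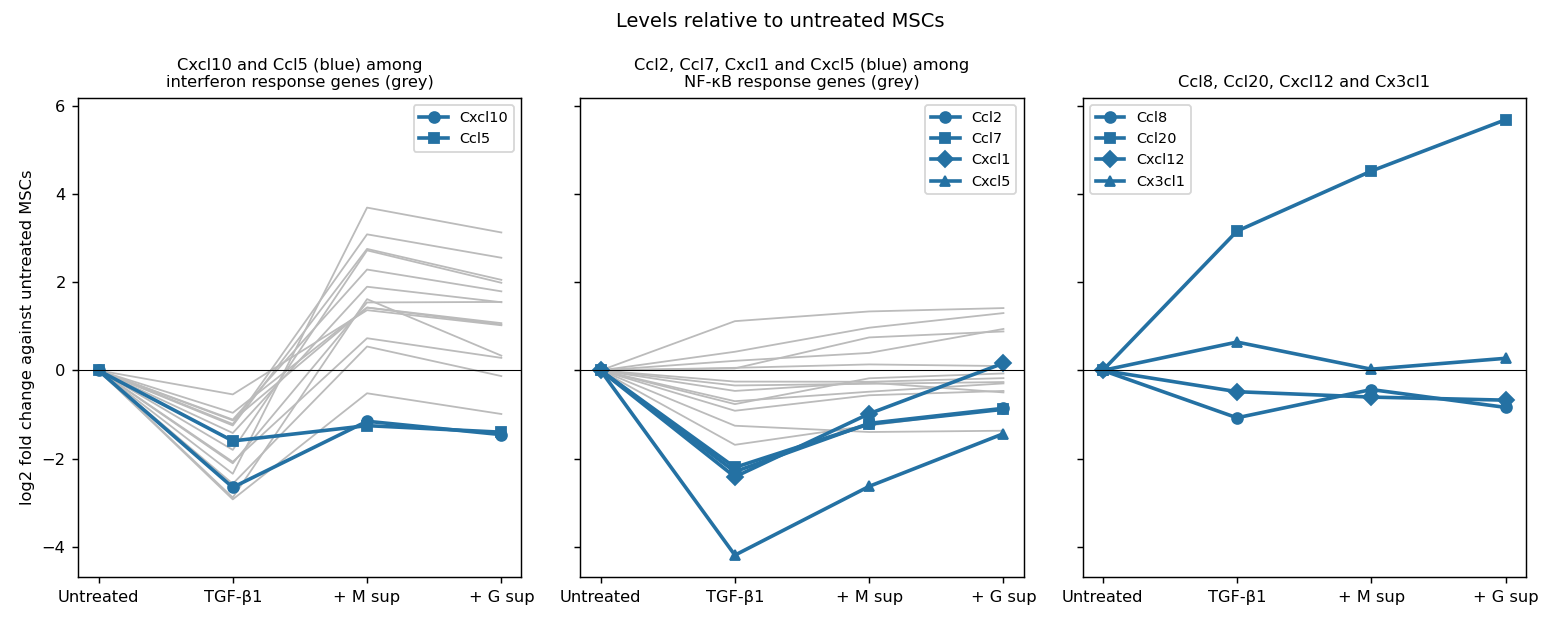
Fitted log2 fold change against untreated MSCs (y axis) for TGF-β1 alone and for TGF-β1 in M-MDSC or G-MDSC supernatant, with untreated set to 0; lines join the values of 1 gene and imply no order of the last 2 groups. With M-MDSC supernatant 13 of 14 interferon response genes (grey, left) lie above untreated, whereas Cxcl10 at -1.15 and Ccl5 at -1.25 lie below it.

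Ccl2 (ENSMUSG00000035385, chromosome 11, 82035571 to 82037453, plus strand) and its neighbor Ccl7 (ENSMUSG00000035373, 82045712 to 82047525, plus strand) encode the monocyte attractants MCP-1 and MCP-3. Ccl2 had 58.5, 64.4 and 61.9 FPKM in untreated MSCs and 11.3, 12.5 and 12.3 FPKM with TGF-β1. With M-MDSC supernatant it had 25.9, 24.6 and 27.9 FPKM, and with G-MDSC supernatant 34.3, 31.9 and 33.3 FPKM. No 2 of the 4 groups overlapped. Ccl2 fell by 2.30 on the log2 scale with TGF-β1 (SE 0.0666, adjusted p = 1.99e-09), and it rose again by 1.10 with M-MDSC (SE 0.0645, adjusted p = 1.26e-06) and by 1.44 with G-MDSC supernatant (SE 0.0649, adjusted p = 1.59e-07).

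Ccl7 ran along with Ccl2 over the 12 libraries (Pearson r = 0.986 of log2(FPKM + 1), a description across libraries that share 4 treatments). Its values were 26.9, 25.7 and 29.6 FPKM untreated, 5.22, 5.20 and 6.73 with TGF-β1, 12.9, 10.7 and 10.9 with M-MDSC and 15.8, 14.8 and 13.0 with G-MDSC supernatant. The last 2 groups came close, at 12.9 and 13.0 FPKM, but did not overlap. Ccl7 fell by 2.20 with TGF-β1 (SE 0.128, adjusted p = 3.11e-07) and rose by 0.98 with M-MDSC (SE 0.125, adjusted p = 0.000848) and by 1.32 with G-MDSC supernatant (SE 0.125, adjusted p = 8.49e-05). Both genes remained lower than in untreated MSCs, Ccl2 by -1.20 and -0.86 and Ccl7 by -1.22 and -0.88 on the log2 scale with M-MDSC and G-MDSC supernatant, each past the test. Ccl2 regained 28.5 ± 3.39% and 42.7 ± 2.46% of its fall, and Ccl7 26.7 ± 5.63% and 40.7 ± 6.47%.

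Ccl8 (ENSMUSG00000009185, chromosome 11, 82115185 to 82116799, plus strand), the third monocyte attractant of this cluster, was low and variable. It had 0.612, 1.97 and 1.54 FPKM untreated (from 27 to 94 counts) and 0.676, 0.638 and 0.543 FPKM with TGF-β1. With M-MDSC supernatant it had 1.11, 0.791 and 1.06 FPKM, and with G-MDSC supernatant 0.233, 0.909 and 1.09 FPKM. Ccl8 passed the test in none of the 6 comparisons. Without untreated library 1, its log2 fold change with TGF-β1 went from -1.08 (adjusted p = 0.143) to -1.44 (adjusted p = 0.0473), so its call hangs on that library.

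Cxcl1 (ENSMUSG00000029380, chromosome 5, 90891241 to 90893115, plus strand) and Cxcl5 (ENSMUSG00000029371, chromosome 5, 90759360 to 90761624, plus strand) encode neutrophil attractants. Cxcl1 had 3.78, 2.95 and 3.02 FPKM in untreated MSCs and 0.405, 0.669 and 0.669 FPKM with TGF-β1. With M-MDSC supernatant it had 2.02, 1.32 and 1.46 FPKM and with G-MDSC supernatant 3.48, 3.60 and 3.60 FPKM. The G-MDSC libraries fell inside the untreated range, and the M-MDSC libraries lay below it. The fall with TGF-β1 was 2.42 on the log2 scale (SE 0.222, adjusted p = 1.03e-05), and the rise against TGF-β1 alone was 1.43 with M-MDSC (SE 0.218, adjusted p = 0.00286) and 2.58 with G-MDSC supernatant (SE 0.223, adjusted p = 4.12e-05).

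Among the 7 chemokines that TGF-β1 lowered, Cxcl1 was the one that did not pass the test against untreated MSCs with G-MDSC supernatant. Its log2 fold change was 0.16 there (interval of 2 SE from -0.25 to 0.58, adjusted p = 0.599), against -0.98 with M-MDSC supernatant (adjusted p = 0.00402). The interval still allows a rise of 0.58, so equal levels are not shown.

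Cxcl5 fell the furthest. It had 7.76, 5.79 and 7.36 FPKM untreated and 0.311, 0.259 and 0.512 FPKM with TGF-β1. It came back to 1.02, 0.933 and 1.32 FPKM with M-MDSC and to 2.69, 2.48 and 2.38 FPKM with G-MDSC supernatant. The 4 groups were again apart from each other. The log2 fold change was -4.19 with TGF-β1 (SE 0.253, adjusted p = 4.06e-07), 1.56 with M-MDSC against TGF-β1 (SE 0.236, adjusted p = 0.00281) and 2.76 with G-MDSC against TGF-β1 (SE 0.241, adjusted p = 4.32e-05). It stayed below untreated MSCs by -2.63 and -1.44 on the log2 scale, both past the test, and regained 11.1 ± 3.09% and 32.6 ± 2.35% of its fall. When only the M-MDSC and the TGF-β1 libraries were fitted, the rises of Cxcl1 and Cxcl5 kept their size, 1.45 and 1.57, but not their call (adjusted p = 0.0548 and 0.0608). Annotated transcripts of Cxcl5 share at least 100 bases at 95% identity or more with transcripts of Dock3 and Mlh3, and how the counting treated reads from these bases is not given in the sources used here.

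Ccl20 (ENSMUSG00000026166, chromosome 1, 83116766 to 83119167, plus strand) encodes the ligand of CCR6, which draws Th17 cells and immature dendritic cells. Its counts were 11, 0 and 0 in untreated MSCs, 36, 52 and 12 with TGF-β1, 64, 93 and 87 with M-MDSC and 192, 202 and 197 with G-MDSC supernatant. In FPKM this was 0.275, 0.395 and 0.0868 with TGF-β1, 0.525, 0.775 and 0.685 with M-MDSC and 1.42, 1.60 and 1.53 with G-MDSC supernatant. The lowest TGF-β1 library overlapped the highest untreated one (0.0868 and 0.0870 FPKM), while the supernatant groups lay above both and apart from each other. Ccl20 rose with TGF-β1, as Cx3cl1 did, by 3.16 on the log2 scale (SE 0.927, adjusted p = 0.0225), a value that rests on the 11 counts of untreated library 1. Without that library the untreated counts were all 0 and the fitted values against untreated grew to 8.05 with TGF-β1, 9.43 with M-MDSC and 10.6 with G-MDSC supernatant, which depend on the prior count and are no measure of the fold. The call with TGF-β1 was lost in 5 of 15 alternatives, among them without untreated library 2 or 3 (adjusted p = 0.0632 and 0.0628) and without TGF-β1 library 2 (adjusted p = 0.0703).

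Against TGF-β1 alone, the log2 fold change of Ccl20 was 1.36 with M-MDSC (SE 0.733, adjusted p = 0.394) and 2.53 with G-MDSC supernatant (SE 0.746, adjusted p = 0.0871), and neither passed. The latter passed in 5 of 12 alternatives, with an adjusted p of 0.00643 by DESeq2. Ccl20 entered the test only because its 3 G-MDSC libraries had at least 1 FPKM, and it was not testable without one of them. Its comparisons with G-MDSC supernatant therefore involve the group that admitted it, and they are given as a description. Against untreated MSCs, with their 11 counts in all, the log2 fold change was 4.53 with M-MDSC (adjusted p = 0.00294) and 5.69 with G-MDSC supernatant (adjusted p = 0.000745).

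Cxcl12 (ENSMUSG00000061353, chromosome 6, 117168535 to 117181367, plus strand) moved little but precisely. It had 19.2, 17.8 and 18.8 FPKM untreated, 12.5, 12.7 and 13.2 with TGF-β1, 12.1, 11.9 and 11.8 with M-MDSC and 11.1, 11.7 and 11.4 with G-MDSC supernatant. All TGF-β1 libraries lay below all untreated ones, as they did for 30% of all tested genes. The supernatant libraries lay lower still, and no supernatant returned it toward the untreated level. The difference between the 2 supernatants did not pass (log2 fold change 0.069, adjusted p = 0.877 by edgeR). It fell by 0.48 on the log2 scale with TGF-β1 (SE 0.0389, adjusted p = 3.82e-06). G-MDSC supernatant lowered it further (log2 fold change -0.19, SE 0.0389, adjusted p = 0.0152), a call that 3 of 15 alternatives lost, and with M-MDSC supernatant the difference of -0.12 did not pass (adjusted p = 0.129).

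Cx3cl1 (ENSMUSG00000031778, chromosome 8, 94772009 to 94782427, plus strand) encodes fractalkine, which is anchored in the membrane and shed by ADAM10 and ADAM17. It had 1.71, 1.73 and 1.81 FPKM untreated, 2.55, 2.95 and 2.39 with TGF-β1, 1.71, 1.75 and 1.77 with M-MDSC and 2.02, 2.46 and 1.75 with G-MDSC supernatant. It rose with TGF-β1 by 0.64 (SE 0.121, adjusted p = 0.00181) and fell again with M-MDSC supernatant by 0.62 on the log2 scale (SE 0.121, adjusted p = 0.0146), to levels that overlapped the untreated libraries. That fall lost its call when TGF-β1 library 2 or any 1 of the M-MDSC libraries was left out, with log2 fold changes from -0.63 to -0.52 and adjusted p from 0.0511 to 0.0640. With G-MDSC supernatant the difference of -0.37 did not pass (adjusted p = 0.126), and 2 of the 3 libraries lay below the TGF-β1 range. Without G-MDSC library 2 it was -0.51 and passed (adjusted p = 0.0294).

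Counted over the members, 6 of 10 passed against TGF-β1 alone with M-MDSC supernatant, where 4.78% of all tested genes did. These were Cxcl10, Ccl2, Ccl7, Cxcl1 and Cxcl5, which rose as did 2.83% of all tested genes, and Cx3cl1, which fell as did 1.95%. With G-MDSC supernatant 6 of 10 passed as well, where 5.56% of all tested genes did. The same 5 rose, against 3.1% of all tested genes, and Cxcl12 fell, against 2.46%. The rises of Cxcl10, Ccl2 and Ccl7 passed in every one of 15 refitted alternatives in both comparisons, as did those of Cxcl1 and Cxcl5 with G-MDSC supernatant. Under the study's rule of fold and unadjusted p, Ccl7 with M-MDSC supernatant did not pass, at a fold of 1.98. Both comparisons use the same 3 TGF-β1 libraries, so their shared directions are not independent. Against untreated MSCs, 8 of 10 chemokines passed with M-MDSC supernatant (7 lower, and Ccl20 higher), where 35.2% of all tested genes did, 18.9% lower and 16.4% higher. With G-MDSC supernatant 7 of 10 passed (6 lower, and Ccl20 higher, which had entered the test through these same libraries), where 34.8% of all tested genes did, 18.4% lower and 16.4% higher. By the study's rule of a fold beyond 2 at an unadjusted p under 0.05, the latter count was 4, where 6.8% of all tested genes passed.

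**Figure D4:**
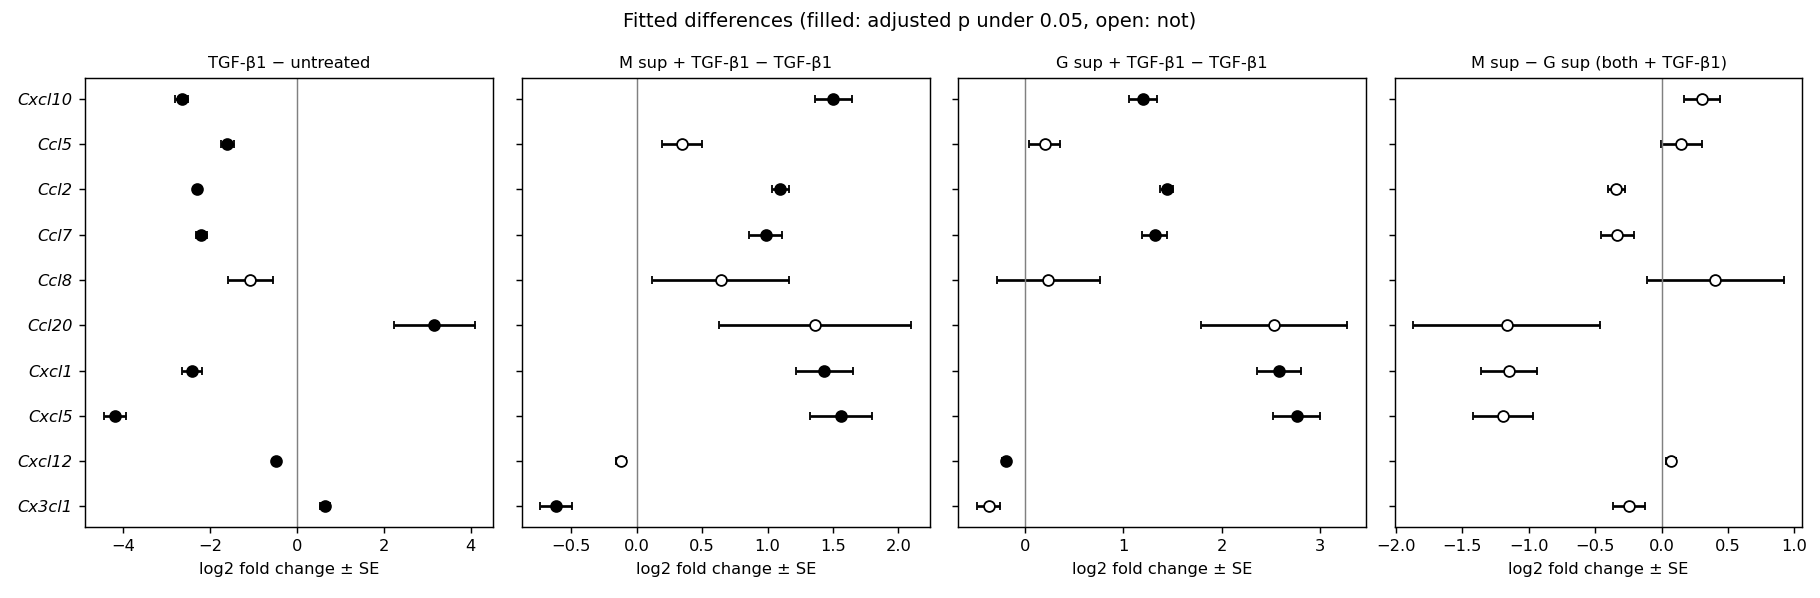
Fitted log2 fold change ± SE (x axis, a scale of its own in each panel) of the 10 chemokines in 4 comparisons; filled points passed the test at an adjusted p under 0.05. Against TGF-β1 alone, 5 chemokines rose and 1 fell with each supernatant, and between the supernatants all 10 points are open, with Cxcl1 at -1.15 and Cxcl5 at -1.20.

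The supernatants were also set against each other. By edgeR, 0 of the 10 chemokines passed the adjusted test, as did 0.125% of all tested genes, and 4 (Ccl2, Ccl7, Cxcl1 and Cxcl5) had an unadjusted p under 0.05, where 6.33% of all tested genes did. In each of these, all M-MDSC libraries lay below all G-MDSC libraries, as they did for 6.03% of all tested genes. The same was seen in Ccl20, which had entered the test through its G-MDSC libraries, so there it is a description. The log2 fold changes were -1.15 for Cxcl1 (SE 0.211, adjusted p = 0.123), -1.20 for Cxcl5 (SE 0.224, adjusted p = 0.126), -0.34 for Ccl2 (SE 0.0635, adjusted p = 0.123) and -0.33 for Ccl7 (SE 0.123, adjusted p = 0.672). DESeq2 passed Cxcl1, Cxcl5 and Ccl2 (adjusted p = 6.45e-05, 4.26e-05 and 0.00121) and 1.01% of all tested genes. By limma on log2(FPKM + 1) these and Ccl20 passed, with 0.325% of all tested genes, and the pass of Ccl20 is again a description. The study's rule passed 2, where 0.549% of all tested genes passed. Cxcl10 lay on the other side, at 0.30 (SE 0.138, interval of 2 SE from 0.028 to 0.58, adjusted p = 0.792), with all 3 M-MDSC libraries above the G-MDSC libraries. Ccl5, at 0.15 (interval of 2 SE from -0.16 to 0.46, adjusted p = 0.968), and Cxcl12, at 0.069 (from -0.0082 to 0.15, adjusted p = 0.877), did not pass either.

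Genes of the NF-κB response, a list of 16 (13 tested), were read beside the other chemokines. With TGF-β1, 6 fell (Nfkbia, Nfkb2, Relb, Bcl3, Birc3 and Vcam1) and 2 rose (Il6 and Ptgs2, the gene of COX-2), with a median log2 fold change of -0.34. Bcl3 had reached the test through its untreated libraries (1.49 to 1.75 FPKM, at most 0.507 with TGF-β1), so its fall is a description. The 8 calls, where 34% of all tested genes were called, numbered 3 to 10 over the alternatives. M-MDSC supernatant raised 1 of 13 against TGF-β1 alone, Relb by 0.59 (adjusted p = 0.0455), where 2.83% of all tested genes rose. G-MDSC supernatant raised 5, Nfkbia (0.45), Nfkbiz (0.72), Relb (0.70), Il6 (0.88) and Ptgs2 (0.30), where 3.1% of all tested genes rose. Over the alternatives the list's calls numbered 0 to 4 with M-MDSC and 0 to 6 with G-MDSC supernatant. No listed gene fell with either, and the medians were 0.22 and 0.40. Between the supernatants, Nfkbiz, which encodes the NF-κB cofactor IκBζ, was the 1 listed gene that passed, at 6.43 ± 0.614 FPKM in M-MDSC and 9.40 ± 0.169 FPKM in G-MDSC supernatant (log2 fold change -0.54, adjusted p = 0.0325). In the interferon list 4 of 14 genes passed this comparison (Isg15, Ifit1, Ifit3 and Ddx58), all 4 higher in M-MDSC supernatant, by 0.35 to 1.28, where 0.125% of all tested genes passed. That count ran from 1 to 11 over the alternatives, and that of the NF-κB list from 0 to 1.

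Of 28 other chemokine ligands, 3 could be tested. Ccl9, a CCR1 ligand, had 1.60 ± 0.0266 FPKM untreated, 0.138 ± 0.0637 with TGF-β1, 0.175 with M-MDSC and 0.243 with G-MDSC supernatant. It entered the test through its untreated libraries alone, so its difference from them is a description. Cxcl16, like Cx3cl1 a membrane-anchored chemokine, did not pass with TGF-β1, nor against TGF-β1 alone with M-MDSC (0.49, adjusted p = 0.202) or G-MDSC supernatant (0.67, adjusted p = 0.0681), but was higher than untreated with M-MDSC (0.92, adjusted p = 0.00296) and G-MDSC supernatant (1.10, adjusted p = 0.000965). Ccl25 did not pass in any comparison. Of 23 receptors only Ackr3, a scavenger of CXCL12, was expressed enough to be tested, and it rose against TGF-β1 by 0.31 (adjusted p = 0.00524) with M-MDSC and 0.41 (adjusted p = 0.000789) with G-MDSC supernatant. Of 5 chemokine-processing proteases 3 were tested, and Mmp14 rose with TGF-β1 by 0.50 (adjusted p = 1.91e-05), while the fractalkine sheddases Adam10 and Adam17 did not pass in any comparison.

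The RNA itself was checked against cell type markers. Of 9 MSC markers, 8 were expressed enough to be tested, and 7 of these were called with TGF-β1, where 34% of all tested genes were. Ly6a (Sca-1) fell from 245 to 16.2 FPKM, Pdgfra from 13.96 to 4.95 FPKM and Thy1 from 4.49 to 2.16 FPKM, while Itgb1, Cd44, Nt5e and Pdgfrb rose and Vim did not pass. Against TGF-β1 alone Ly6a rose by 2.49 on the log2 scale with M-MDSC and by 2.02 with G-MDSC supernatant. Of the 8 tested markers 1 rose and 1 fell with M-MDSC supernatant, where 4.78% of all tested genes passed. With G-MDSC supernatant 3 rose and 1 fell, where 5.56% passed. Mean levels of Pdgfrb (44.7 FPKM with TGF-β1, 38.4 with M-MDSC and 34.2 with G-MDSC supernatant) and Thy1 (2.16, 1.72 and 1.55) were lower with supernatant, and those of Nt5e (1.00, 1.28 and 1.65) higher. The 6 endothelial markers summed to 0.63 FPKM at most. Kap, a kidney gene, had 0 counts in every library without supernatant and from 537 to 4246 counts in every library with it, and the summed level of 10 kidney tubule markers was 0.374 to 0.593 FPKM without and 12.8 to 79.6 FPKM with supernatant. The source of this RNA is not known. M-MDSC library 3 stood apart with 79.6 FPKM, and without it the 5 chemokines that rose against TGF-β1 kept their calls, while Cx3cl1 had a log2 fold change of -0.63 in place of -0.62 with an adjusted p of 0.0511, a call that it also lost without either of the other M-MDSC libraries. All other supernatant libraries still held kidney marker RNA, so leaving out 1 library does not test its part in these calls. Of the 17 myeloid markers 5 could be tested. Ly6g had 1.83 FPKM untreated and 0.0681 FPKM with TGF-β1, and Ly6c2 had 1.71 and 0.0450 FPKM, and both entered the test through the untreated libraries alone, so these are descriptions. With TGF-β1, Cd14 fell from 23.0 to 13.8 FPKM (adjusted p = 4.84e-05), while Csf1r rose from 0.631 to 1.03 FPKM (adjusted p = 0.00602). Cd14 gave most of the sum, which was 26.9 to 28.1 FPKM untreated, 13.6 to 15.8 with TGF-β1, 20.6 to 26.1 with M-MDSC and 26.0 to 29.9 with G-MDSC supernatant. Lyz2, a lysozyme of myeloid cells, had at most 23 counts without and 71 to 262 counts with supernatant. S100a9, a calcium-binding protein of neutrophils and monocytes, had 0 counts in the 6 libraries without supernatant, 12 to 43 with M-MDSC, and 160 in 1 and 0 in the other two with G-MDSC supernatant. Itgam (CD11b) had at most 1 count without supernatant, 0 to 41 with M-MDSC and 14 to 42 with G-MDSC supernatant. Ptprc (CD45) had at most 4 counts without and at most 26 with supernatant, and Mpo and Elane had 0 in all 12 libraries. Of the other chemokines, Ccl3 had 0 counts in all 6 libraries without supernatant, 34 to 121 with M-MDSC and 26 to 64 with G-MDSC supernatant, and Ccl4 had at most 4 counts without and 4 to 36 with supernatant; these were chosen after their values were seen and were too low to be tested. The part of these markers in the chemokine levels was not tested.

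For each chemokine, the tested genes with the most similar pattern over the 12 libraries (Pearson r of log2(FPKM + 1), a description) were listed. Ccl2 and Ccl7 were each other's nearest genes. Ccl20 was nearest to Il6 (r = 0.960) and Nfkbiz (r = 0.947), and Cxcl5 to the growth factor gene Fgf7 (r = 0.989), Serpine2 and the oncostatin M receptor gene Osmr. Ccl5 was nearest to Lgals3 (r = 0.993), which encodes galectin-3, and Cxcl10 to Gsdmd (r = 0.986), Plac8 and Serpinb9. Cxcl1 was nearest to Dpy19l1 (r = 0.942), Plpp3 and Fosl1, and Cxcl12 to Hspa12a (r = 0.992), Cenpb and Vat1. Cx3cl1 was nearest to Evl (r = 0.921), Tagln and Pdgfb, and Ccl8 reached no more than r = 0.875 with any gene.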

How the data were processed

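Poly(A) RNA of 12 MSC libraries was sequenced with a stranded dUTP protocol. The authors trimmed and checked the reads (fastp, and cutadapt 1.9 per the submitters' processing notes), aligned them to GRCm38 with HISAT2 2.0.4, assembled transcripts with StringTie 1.3.4d and merged them with gffcompare. The deposited table holds raw counts per gene and library, and the counting tool is not given in the sources used here. Beside them stand FPKM values from the authors, where 0.0001 takes the place of 0.

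The 12016 of 55401 genes that reached 1 FPKM in 3 or more libraries were tested on their counts by edgeR 4.0.16 (R 4.3.3; quasi-likelihood, two-sided), with TMM factors, the 4 groups in 1 fit and Benjamini-Hochberg adjustment, called at an adjusted p under 0.05. The study's own rule, a fold beyond 2 in either direction at an unadjusted p under 0.05, served as an alternative. SE were derived from the F statistic. Over genes with at least 20 counts in a pair of replicates, the mean squared difference was 45.0 to 62.7 times that of Poisson counting error. Of nonzero counts up to 12, 44.3% were multiples of 4, so the true counting error is not known, and counts divided by 4 were an alternative. The others were DESeq2 1.42.0, limma 3.58.1 on log2(FPKM + 1) and log2(FPKM + 0.1), median-ratio size factors, 2 other filters, fits of 2 groups, a replicate block and leaving out each library in turn.

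In simulated data drawn from the mean of each gene over all 12 libraries, 200 of 12016 genes were changed in the TGF-β1 group. Against untreated MSCs, 80 of 100 genes changed by 1 and 99 of 100 changed by 2 on the log2 scale were recovered, with 11 false calls. The real comparisons called other shares (34% for TGF-β1, 0.125% between the supernatants), so this recovery does not carry over to them. Promoter windows came from RefSeq (GRCm38.p6); those of Ccl2, Ccl5, Ccl7 and Cxcl5 were not used here. The genes named are the 10 members, listed genes that passed or had the lowest adjusted p, and the 3 genes most like each member. Other genes named (untested chemokines and cell type markers) were chosen after their values were seen. Members and lists were chosen with earlier results of these data known. Proteins were not analysed here.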

Additional observations from a re-analysis of the deposited data

How the results depend on the processing

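Over 60 differences (10 chemokines in 6 comparisons) and 891 recomputed values, 857 kept their direction and their side of the threshold, 16 newly passed, 14 no longer passed and 4 changed sign, none of these 4 past the threshold in the reported fit. The count of chemokines passing was 9 of 10 for TGF-β1 against untreated (7 to 9 under other settings, 8 to 10 with 1 library left out), 6 for M-MDSC supernatant against TGF-β1 (4 to 7, and 5 to 6) and 6 for G-MDSC supernatant against TGF-β1 (6 to 7, and 5 to 7). Against untreated it was 8 with M-MDSC (6 to 8, and 8 to 8) and 7 with G-MDSC supernatant (4 to 7, and 6 to 7), where the study's rule of fold and unadjusted p gave the 4. Between the supernatants it was 0, against 2 by the study's rule, 3 by DESeq2 and 4 by limma on log2(FPKM + 1). The 4 include Ccl20, which its G-MDSC libraries had admitted to the test. Leaving out a library gave 0 to 0. The sign changed for Ccl8 with G-MDSC supernatant against TGF-β1 without G-MDSC library 3 (from 0.24 to -0.15, and up to 0.66 over all libraries left out), for Ccl8 between the supernatants without G-MDSC library 1 (from 0.40 to -0.015, and up to 0.79), and for Cx3cl1 with M-MDSC supernatant against untreated by limma on log2(FPKM + 1) and log2(FPKM + 0.1) (from 0.028 to -0.0045 and -0.0066). Why the settings differ was not tested.

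Libraries with the same replicate number did not deviate together (residual correlations from -0.166 to 0.0789 over 18 pairs). The mean was -0.0044 for these pairs and 0.0023 for 36 pairs with other numbers. With 3 libraries per group, this does not exclude a pairing. With the replicate number as a block, 9, 6, 6, 0, 8 and 7 chemokines passed in the 6 comparisons (in the order TGF-β1 against untreated, each supernatant against TGF-β1 with M-MDSC first, between supernatants, and each against untreated), and all 60 differences kept direction and side. Ccl20 could not be tested without a G-MDSC library under the filter. Ccl8 and Ccl20 rest on the fewest counts, from 12 to 94 and from 0 to 202 per library.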
